A study of Mus musculus with 9 samples.

Results

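Csmd1, Csmd2, Csmd3, Lrp1, Lrp1b and Lrp2 encode very large membrane proteins built from repeated extracellular modules. They were followed here in cerebral cortex of mouse embryos that carry or lack Sfpq, a nuclear RNA-binding protein of transcription and RNA processing. The 6 genes were chosen by name, and their signal was taken from the probe sets that the platform annotation gives to each gene alone. These were 552 of the 318760 probe sets with 1 gene symbol, and the members were 6 of the 16854 genes that could be tested. By gene, they were 88 for Csmd1, 79 for Csmd2, 89 for Csmd3, 93 for Lrp1, 105 for Lrp1b and 98 for Lrp2. No further probe set named a member together with another gene.

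RNA of the cortex of E13.5 embryos was read on exon arrays (Affymetrix Mouse Exon 1.0 ST), with 1 array for each sample. There were 3 arrays from controls labelled wild type, 3 from embryos labelled Sfpq+/- and 3 from embryos labelled Sfpq-/-. The labels name no Cre driver, no deleted exon, no strain and no litter, so the cells in which Sfpq was lost are not given. Nor do they say whether litters were shared within a group, and p-values therefore cover only the spread among these 9 samples. The extraction notes name Sfpq+/- a second time where Sfpq-/- would stand.

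CSMD proteins carry long rows of CUB and sushi domains, the modules also found in complement regulators, on a single membrane span. CSMD1 is known in human and mouse as an inhibitor of complement and CSMD3 as a factor in dendrite growth. The LDL receptor relatives bind many secreted ligands and take them up by endocytosis. LRP1 clears protease complexes and apolipoprotein E, LRP1B is a slower relative that is often deleted in human tumours, and LRP2, also called megalin, acts in the neuroepithelium, where it binds Shh.

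The genes differ greatly in span, the length from the first to the last annotated base in RefSeq (GRCm38.p6). Lrp1b on chromosome 2 spans 2058 kb, Csmd1 on chromosome 8 spans 1643 kb, Csmd3 on chromosome 15 spans 1212 kb and Csmd2 on chromosome 4 spans 581 kb. Lrp2, also on chromosome 2, spans 162 kb, and Lrp1 on chromosome 10 spans 83.0 kb. No source used here names the genome build of the array annotation, and probe sets were not placed within genes.

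The RefSeq promoter table held 2 of the 6 genes, Lrp1 and Lrp2, whose gene levels are set side by side later. Their windows run from 250 bases before to 50 bases after the annotated start, on the minus strand of GRCm38.p6, at chr2:69585980-69586279 for Lrp2 and chr10:127621099-127621398 for Lrp1. Both are shown 5′ to 3′ because these are the members the table holds: Lrp2, which rose, and Lrp1, which did not pass. Capitals mark the GC box, GGGCGG or its reverse complement CCGCCC.
Lrp2: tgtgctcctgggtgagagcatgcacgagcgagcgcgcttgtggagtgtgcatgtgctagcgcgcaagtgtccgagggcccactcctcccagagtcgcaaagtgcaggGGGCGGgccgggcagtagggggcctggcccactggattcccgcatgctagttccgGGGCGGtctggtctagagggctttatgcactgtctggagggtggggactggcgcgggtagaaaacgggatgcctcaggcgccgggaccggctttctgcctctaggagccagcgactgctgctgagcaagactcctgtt
Lrp1: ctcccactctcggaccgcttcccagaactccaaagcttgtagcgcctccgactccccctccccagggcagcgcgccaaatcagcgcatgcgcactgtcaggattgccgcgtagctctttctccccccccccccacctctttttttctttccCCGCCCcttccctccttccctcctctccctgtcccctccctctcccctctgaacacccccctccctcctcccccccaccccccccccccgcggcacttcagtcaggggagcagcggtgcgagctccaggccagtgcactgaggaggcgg
The Lrp2 window held 2 GC boxes, at positions -143 and -88 from the start, and the Lrp1 window held 1, at -99 on the opposite strand. A GC box in either orientation was present in 35.66% of the 32851 promoter windows of the table. Neither window held TATAAA or TTTATA, which 13.62% of windows did. The sequences differed in base composition: pyrimidines made up 46% of the Lrp2 strand shown and 69.3% of the Lrp1 strand, and 0.378% of all windows were at least as rich in pyrimidines as that of Lrp1. These matches describe the letters in the windows, and no binding was measured.

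Sfpq was lower in Sfpq-/- cortex, as a check of the labels: its 12 probe sets with a mean above 10 were 3.90-fold lower than in controls (limma adjusted p = 1.03e-06). In Sfpq+/- they differed by -0.13 (adjusted p = 0.886), so they do not check that label. Array medians lay between 5.648 and 5.697 on the log2 scale. Cortical markers were present, with control means of 11.87 for the neuronal tubulin gene Tubb3, 9.87 for the projection neuron factor Tbr1 and 9.11 for the radial glia factor Pax6. Embryo sex was not matched: Xist was at or above 11.48 on control 1, control 2 and Sfpq-/- 1 and at or below 5.87 on the other arrays. All 6 members lie on autosomes. Where Xist signal as a covariate changed the sign of a member's difference, the value is given below, and the part of sex was not tested.

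A gene's level is the mean log2 signal of those of its probe sets that averaged more than 5.64 across the 9 arrays, which is the median probe set. It was tested with limma on all 16854 genes, with Benjamini-Hochberg adjustment at 0.05. All 93 Lrp1 probe sets passed this limit, as did 70 of 88 for Csmd1, 69 of 79 for Csmd2 and 80 of 98 for Lrp2. Only 47 of 89 passed for Csmd3 and 45 of 105 for Lrp1b. For those 2 genes the level therefore rests on about the brighter part of the probe sets. Levels are not compared between genes, since probe sets differ in brightness.

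In Sfpq-/- against control cortex, Csmd1, Csmd2 and Lrp1b fell and Lrp2 rose, 4 of the 6 genes. Among all genes 12.1% passed, 6.12% as lower and 5.98% as higher. Csmd3 was lower by a log2 change of -0.38 and missed the threshold (adjusted p = 0.0526), and Lrp1 differed by 0.09 (adjusted p = 0.725). The 4 genes with a negative change were the 4 that span over 500 kb. In a tissue sample, fewer cells of a type and less RNA per cell cannot be told apart.

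Csmd1 levels were 7.06, 7.12 and 7.30 in the 3 controls, 7.19, 7.21 and 7.17 in Sfpq+/- and 6.28, 6.28 and 6.50 in Sfpq-/- cortex. The Sfpq-/- arrays all lay below the other 6, and the Sfpq+/- arrays lay within the range of the controls. Of all genes, 10.8% had Sfpq-/- arrays all below the controls and 13.6% had them all below the Sfpq+/- arrays. Loss of Sfpq went with a 1.75-fold lower Csmd1 level (log2 change -0.80, SE 0.09, 95% interval -1.001 to -0.61, adjusted p = 0.000146). By size of fall it ranked 266th among 16854 genes. The change was -0.447 when only the 8 probe sets with a mean above 8 were used, and the call held. Csmd1 is the complement inhibitor of the group.

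Csmd2, the least studied CSMD gene, had levels of 7.34, 7.23 and 7.48 in controls, 7.44, 7.38 and 7.45 in Sfpq+/- and 6.77, 6.56 and 6.90 in Sfpq-/- cortex. Again no Sfpq-/- array overlapped a control or Sfpq+/- array, beside the same shares of all genes as for Csmd1. The fall was 1.53-fold (log2 change -0.61, SE 0.10, 95% interval -0.83 to -0.39, adjusted p = 0.00183). Csmd1 and Csmd2 passed in all 20 alternative settings tried, the 9 that left out 1 array included.

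For Csmd3 the levels were 6.95, 6.66 and 6.67 in controls, 7.001, 7.14 and 6.82 in Sfpq+/- and 6.26, 6.40 and 6.50 in Sfpq-/- cortex. Control 1 and the Sfpq+/- arrays were high, and the Sfpq-/- arrays were all below the controls. Among all genes, 10.8% had Sfpq-/- arrays that all lay below the controls. The difference from controls was 1.30-fold (log2 change -0.38, SE 0.11, 95% interval -0.62 to -0.13). It passed in 6 of 20 alternative settings. Among these were the fits that dropped Sfpq-/- replicate 3 (-0.434, adjusted p = 0.0377) or Sfpq+/- replicate 3 (-0.376, with 0.0493).

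**Figure D1:**
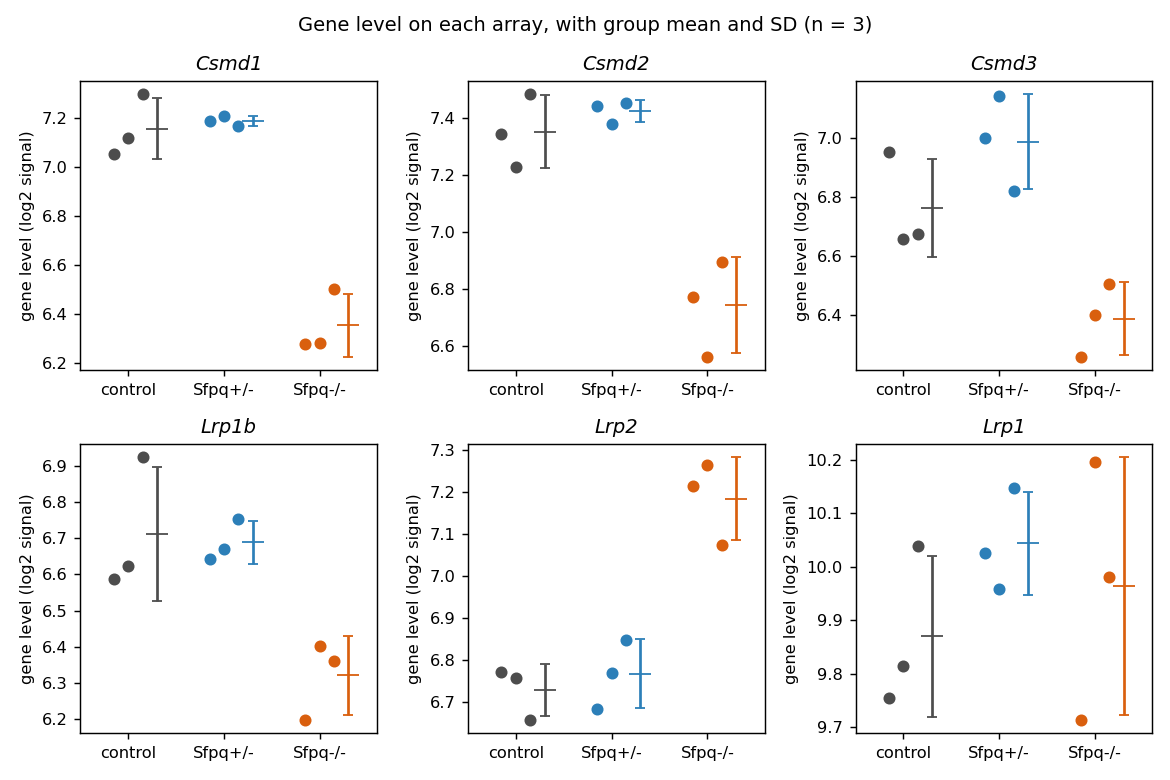
Gene level (log2 signal) of each gene on each of the 9 arrays, by genotype; points are arrays, and the bar beside them gives the group mean and SD (n = 3). The vertical axes differ between panels and do not start at 0. Csmd1, Csmd2, Csmd3 and Lrp1b were lowest in Sfpq-/- cortex, Lrp2 was highest there, and the Lrp1 groups overlapped.

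Among the LDL receptor relatives, Lrp1b levels were 6.59, 6.62 and 6.93 in controls, 6.64, 6.67 and 6.75 in Sfpq+/- and 6.20, 6.40 and 6.36 in Sfpq-/- cortex. Control 3 was the highest array and Sfpq-/- 1 the lowest. Lrp1b fell 1.31-fold in Sfpq-/- (log2 change -0.39, SE 0.10, 95% interval -0.61 to -0.17, adjusted p = 0.0269). Leaving out control replicate 3 ended this call (-0.285, adjusted p = 0.086), as did dropping Sfpq-/- replicate 1 (-0.331, with 0.12). It also ended in 3 of the other settings, and held in 14 of 19.

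Lrp2, the Shh-binding receptor megalin, went the opposite way. Its levels were 6.77, 6.76 and 6.66 in controls, 6.68, 6.77 and 6.85 in Sfpq+/- and 7.21, 7.26 and 7.07 in Sfpq-/- cortex. Each Sfpq-/- array lay above each of the other 6. Of all genes, 16.1% had Sfpq-/- arrays all above the controls and 13.2% had them all above the Sfpq+/- arrays. Lrp2 rose 1.37-fold (log2 change 0.46, SE 0.08, 95% interval 0.28 to 0.63, adjusted p = 0.0032), and it passed in all 20 alternative settings. Dim probe sets of Lrp2 could be kept through the Sfpq-/- arrays, where the gene was higher, and these were not counted. The change was 0.45 with no filter on dim probe sets, 0.355 with only those above 7 and 0.406 above 8.

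Lrp1, the endocytic receptor for apolipoprotein E and protease complexes, had levels of 9.75, 9.82 and 10.04 in controls, 10.03, 9.96 and 10.15 in Sfpq+/- and 9.71, 10.20 and 9.98 in Sfpq-/- cortex. The groups overlapped, and the Sfpq-/- arrays included both the lowest and the highest of the 9. The difference of 0.09 had a 95% interval from -0.18 to 0.37. With Xist signal as a covariate it was -0.017, so its direction was not settled.

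Against Sfpq+/- cortex, 5 of the 6 genes passed in Sfpq-/-, where 11.8% of all genes did, 7.25% as lower and 4.58% as higher. This comparison shares its Sfpq-/- arrays with the one above. Csmd1 was 1.78-fold lower (adjusted p = 0.000103), Csmd2 1.61-fold lower (adjusted p = 0.000783), Csmd3 1.52-fold lower (log2 change -0.60, SE 0.11, adjusted p = 0.00409) and Lrp1b 1.29-fold lower (adjusted p = 0.0355). Lrp2 was 1.33-fold higher (adjusted p = 0.0052), and Lrp1 differed by -0.08 (adjusted p = 0.763). Csmd3 thus passed against Sfpq+/- in all 20 settings. The Lrp1b call ended in 9 of 19 settings, with adjusted p up to 0.239. Of those 9 settings 6 left out 1 array: control replicate 2 (adjusted p = 0.0514), Sfpq+/- replicate 1 (0.0799), 2 (0.0922) or 3 (0.121), or Sfpq-/- replicate 1 (0.153) or 3 (0.0526).

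Sfpq+/- against control cortex gave no call among the 6 genes. Of all 16854 genes 0% passed, while 715, or 4.24%, had an unadjusted p under 0.05. None of the 6 members was among those 715. Csmd3 had the largest difference (0.23, SE 0.11, 95% interval -0.02 to 0.47, adjusted p = 0.886), followed by Lrp1 (0.17, 95% interval -0.10 to 0.45). The intervals of Csmd1 (-0.17 to 0.23), Csmd2 (-0.14 to 0.29), Lrp1b (-0.24 to 0.20) and Lrp2 (-0.14 to 0.22) all held 0.

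**Figure D2:**
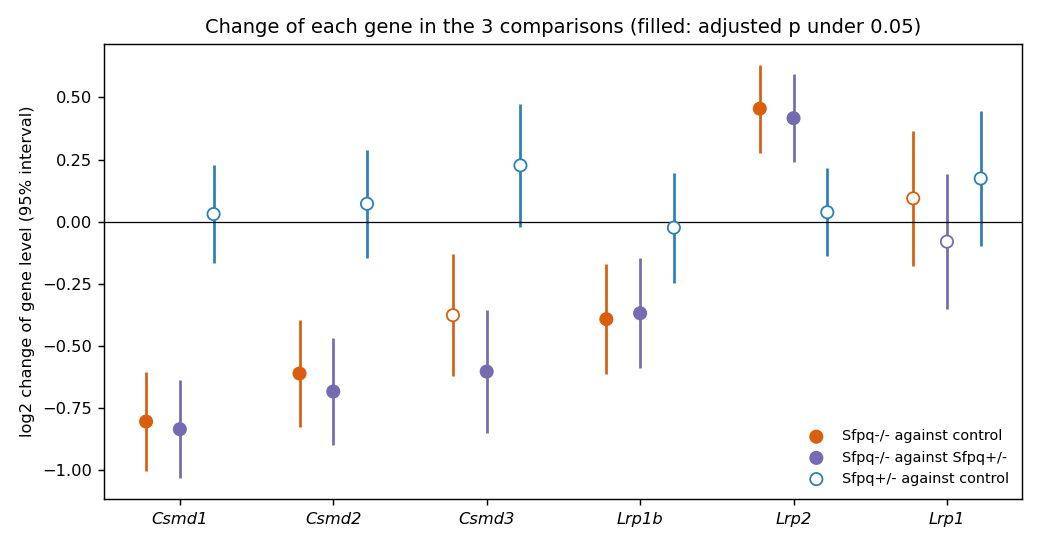
Log2 change of gene level (points) with its 95% interval (lines) for each gene in the 3 comparisons; filled points passed at adjusted p under 0.05. The Sfpq-/- changes of Csmd1, Csmd2, Csmd3 and Lrp1b lie below 0 and those of Lrp2 above it, while all Sfpq+/- intervals include 0.

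The same model was then fitted to the signal of each of the 628415 probe sets above the limit. Of the members' probe sets 36 passed in Sfpq-/- against control: 19 of 70 for Csmd1, 10 of 69 for Csmd2, 1 of 47 for Csmd3 and 1 of 45 for Lrp1b, all lower, and 5 of 80 for Lrp2, all higher. None of 93 passed for Lrp1. In 9 of the 19 of Csmd1 and 3 of the 10 of Csmd2, all 3 Sfpq-/- arrays lay under the limit. Those were kept through the control and Sfpq+/- arrays, so these counts are not independent of the filter. Over all probe sets 1.75% passed, 1.19% as lower and 0.561% as higher, and among those in the genes tested 2.32% and 0.86%. Against Sfpq+/- 50 member probe sets passed in Sfpq-/-: 21 of Csmd1, 20 of Csmd2, 6 of Csmd3 and 1 of Lrp1b as lower and 2 of Lrp2 as higher. In that comparison 1.93% of all probe sets passed, 1.5% as lower and 0.425% as higher. The total of 36 against control was 15 without control replicate 3, 16 without control replicate 2, 18 without Sfpq-/- replicate 1 and 23 without Sfpq-/- replicate 2.

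The signs within a gene were much alike. For Csmd1 64 of 70 probe sets had a negative change (median -0.75, quartiles -1.11 and -0.37), and for Csmd2 66 of 69 (median -0.58, quartiles -0.85 and -0.33). The change was negative for 39 of 47 probe sets of Csmd3 (median -0.31) and for 40 of 45 of Lrp1b (median -0.34). In contrast, 77 of 80 were positive for Lrp2 (median 0.43, quartiles 0.21 and 0.66) and 78 of 93 for Lrp1 (median 0.09). Among all 248590 probe sets of the genes tested, 45.7% were negative and the median was 0.03. Probe sets of a gene share its RNA and are not replicates.

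Arrays that did not overlap were counted per probe set, including Csmd1 and Csmd2 probe sets that were kept through the control and Sfpq+/- arrays. All Sfpq-/- arrays lay below all controls in 44 of 70 probe sets of Csmd1, 43 of 69 of Csmd2, 15 of 47 of Csmd3 and 10 of 45 of Lrp1b, against 7.4% of all probe sets and 10.4% of those in the genes tested. They lay above all controls in 36 of 80 probe sets of Lrp2 and 4 of 93 of Lrp1, against 7.65% and 10.9%. In Sfpq+/- no member probe set passed, and 0% of all probe sets did, with 28244 (4.49%) at an unadjusted p under 0.05. For Lrp1, 91 of 93 were nonetheless positive in Sfpq+/- (median 0.17), where 60.7% of all probe sets of the genes tested were. All Sfpq+/- arrays lay above all controls in 25 of the 93, against 5.27% of all probe sets and 7.51% of those in the genes tested. Xist was high on 2 of 3 controls and on none of the Sfpq+/- arrays, so sex and genotype largely coincide in this comparison. With Xist signal as a covariate the Lrp1 difference in Sfpq+/- was -0.029. That fit cannot tell sex from genotype here, and the part of sex was not tested.

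**Figure D3:**
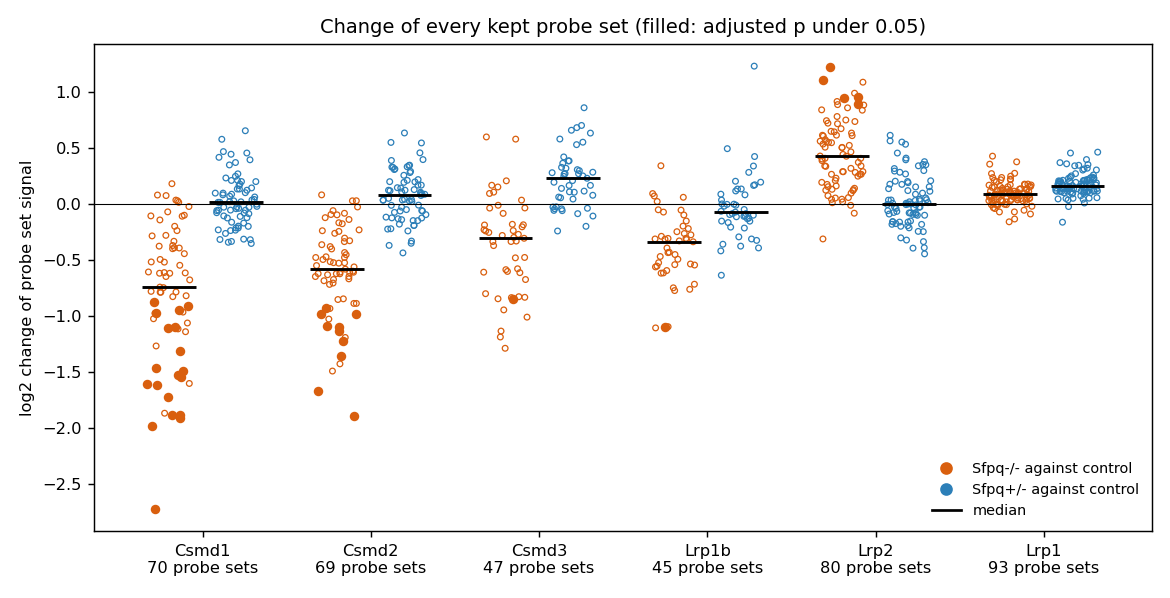
Log2 change of every kept probe set of the 6 genes in Sfpq-/- (orange) and Sfpq+/- (blue) against control; each point is a probe set, filled where adjusted p was under 0.05, and black lines are medians. The medians in Sfpq-/- were -0.75 for Csmd1, -0.58 for Csmd2, -0.31 for Csmd3, -0.34 for Lrp1b, 0.43 for Lrp2 and 0.09 for Lrp1.

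Brightness was set beside the change with each gene's probe sets ranked by their mean over the Sfpq+/- arrays, which are in neither group compared, and cut into 3 groups of about equal number. From dimmest to brightest, the median change in Sfpq-/- against control was -0.55, -0.79 and -0.63 for Csmd1 and -0.55, -0.61 and -0.63 for Csmd2. It was -0.28, -0.59 and -0.23 for Csmd3, -0.29, -0.45 and -0.34 for Lrp1b and 0.59, 0.51 and 0.29 for Lrp2. For Lrp1 it was 0.10, 0.12 and 0.04. Each gene kept its sign in all 3 groups. Over all probe sets of the genes tested the medians were 0.03, 0.03 and 0.02.

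To find single probe sets that changed otherwise than their gene, each probe set's signal minus the gene level of the same array was tested over 248590 probe sets. In Sfpq-/- against control 0.926% of these departures passed, 0.444% downward and 0.483% upward. Of the members' probe sets 12 passed: 9 of Csmd1, 2 of Csmd2 and 1 of Lrp1b. In Csmd1 5 of the 9 departed downward and 4 upward, and the changes of those 4 lay between -0.11 and 0.08. None passed in Sfpq+/- against control, where 0% of all probe sets did and 9560 (3.85%) had an unadjusted p under 0.05. Against Sfpq+/- 20 departures of members passed in Sfpq-/-, 13 of Csmd1, 5 of Csmd2 and 1 each of Csmd3 and Lrp2, where 0.839% of all did.

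All 3 Sfpq-/- arrays lay under 5.64, the limit for dim probe sets, in 9 of the 19 Csmd1 probe sets that fell and in 3 of the 10 of Csmd2. The same held for 4 of the 5 downward departures of Csmd1 and for 1 of the 2 of Csmd2. Such probe sets were kept through the control and Sfpq+/- arrays. Their signals are given without the size of the change, which the dim signal does not settle. Their departures are counted above but not used further.

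Probe set 5019804 of Csmd1 stayed above that limit on every array. It was at 8.63, 8.61 and 8.85 in controls, 8.48, 8.77 and 8.88 in Sfpq+/- and 7.05, 6.61 and 7.27 in Sfpq-/- cortex. The Sfpq-/- arrays were all lower (change -1.72, limma adjusted p = 0.00208), with a departure of -0.92 from the gene level (adjusted p = 0.0248). When each array was left out in turn, that departure missed the threshold 5 times of 9 (adjusted p up to 0.094).

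Probe set 5218117 of Csmd1 was at 6.76, 6.72 and 6.82 in controls, 6.85, 6.20 and 6.55 in Sfpq+/- and 4.15, 3.53 and 4.42 in Sfpq-/- cortex. Probe set 4606315 was at 7.01, 7.14 and 7.47 in controls, 7.72, 7.61 and 7.65 in Sfpq+/- and 5.30, 5.04 and 5.53 in Sfpq-/-. Both, like 4996416 and 5166462, passed as lower in Sfpq-/- and were under the limit on all 3 arrays there.

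The brightest Csmd1 probe sets did not follow the gene. Probe set 5066421 was at 9.88, 9.96 and 9.86 in controls and 9.66, 9.62 and 10.10 in Sfpq-/- cortex. It differed by -0.11 (adjusted p = 0.899), and so departed upward from the gene level by 0.70 (adjusted p = 0.0395). The same was seen for 4641995 (change 0.08, departure 0.88, adjusted p = 0.0285) and 5278086 (change -0.11, departure 0.69, adjusted p = 0.0392). The largest positive change of Csmd1 was 0.18, in probe set 4793805, which did not pass (adjusted p = 0.904).

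In Csmd2 the departures of probe sets 5250463 and 5450707 passed, and that of the second is counted above but not used further. The first was at 7.95, 7.73 and 8.37 in controls, 8.43, 8.06 and 8.20 in Sfpq+/- and 6.32, 6.19 and 6.51 in Sfpq-/- cortex (change -1.68, adjusted p = 0.00232; departure -1.06, adjusted p = 0.0061). The second was at 7.09, 6.86 and 7.36 in controls, 7.52, 7.19 and 7.59 in Sfpq+/- and 5.61, 4.78 and 5.23 in Sfpq-/-, under the limit for dim probe sets on all 3 of those arrays. Both were below every control and Sfpq+/- array in all 3 Sfpq-/- arrays. The brightest Csmd2 probe sets, 5598420 and 4586339, differed by -0.06 and -0.08, while 5039038 differed by -0.93 (adjusted p = 0.0927). Probe set 4867341 differed by -1.49 with a wide spread in Sfpq-/- (5.78, 3.54 and 5.09; adjusted p = 0.219), and the largest positive change was 0.08, in 4530265.

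**Figure D4:**
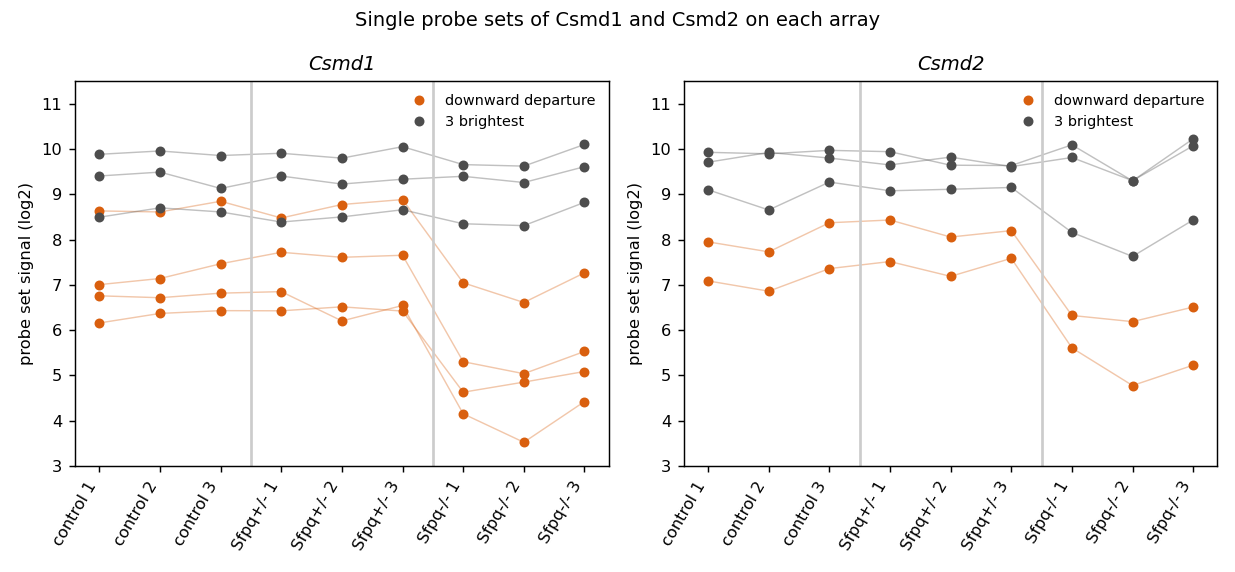
Signal (log2) of single Csmd1 (left) and Csmd2 (right) probe sets on each array: those named for a downward departure from the gene level (orange) and the 3 brightest (grey); faint lines join the values of 1 probe set and imply no order of replicates. The orange probe sets were lower on every Sfpq-/- array, 4 of them then under the limit of 5.64 on all 3, while the grey ones, except 1 of Csmd2, stayed near their control values. The departures of those 4 are not used further.

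In Csmd3 the only probe set to pass was 5188102, a count of 1 named after its values were seen, with a change of -0.85 (adjusted p = 0.0469). The largest negative changes, in 5001732 (-1.29), 5092887 (-1.19) and 5266526 (-1.14), did not pass (adjusted p = 0.107, 0.125 and 0.131). The brightest, 4969312, 4862246 and 4640306, differed by -0.31, -0.19 and -0.19, and 5412274 by 0.60 (adjusted p = 0.591).

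The 1 probe set of Lrp1b to pass was 4786796. It was at 6.87, 6.54 and 6.90 in controls, 6.44, 6.72 and 6.51 in Sfpq+/- and 5.52, 5.75 and 5.73 in Sfpq-/- cortex, the first of these under the limit for dim probe sets. The change was -1.10 (adjusted p = 0.00688) and the departure -0.71 (adjusted p = 0.0353). That departure call ended in 8 of the 9 fits without 1 array, with adjusted p up to 0.137, and with the replicate number as a block (adjusted p = 0.069). Other large negative changes of Lrp1b, in 4642364 (-1.11) and 4685880 (-1.10), did not pass. Its brightest probe sets differed by -0.54 (4689490), 0.02 (4593824) and -0.62 (4830355), and none of these passed. Probe set 4845097 had the largest positive change, 0.34, and ranged from 4.12 to 6.64 within controls.

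In Lrp2 the largest rise was in probe set 4727222. It was at 6.37, 6.16 and 5.67 in controls, 6.54, 6.22 and 6.29 in Sfpq+/- and 7.53, 7.41 and 6.95 in Sfpq-/- cortex, a 2.35-fold rise (log2 change 1.23, adjusted p = 0.0239). That call ended in 4 of the 9 fits without 1 array: without control replicate 2 (adjusted p = 0.0809) or 3 (0.0738), or without Sfpq-/- replicate 1 (0.112) or 2 (0.0826). The brightest Lrp2 probe sets, 5122456, 5058204 and 4351981, differed by 0.39, 0.12 and 0.50 and did not pass. The 3 negative changes of Lrp2 were -0.31 (5159117), -0.08 (4710908) and -0.01 (4461436).

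Lrp1 probe sets varied little among themselves, between -0.16 (5457578) and 0.43 (5326439) in Sfpq-/- against control. The brightest were 4850024, 4635466 and 5599734, with differences of 0.10, 0.03 and 0.02. The next lowest, 5320960 and 4359290, were at -0.13 and -0.09.

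Gene span was set beside these changes. The earlier finding that long genes fell in Sfpq-/- cortex came from these same arrays, so the members' place in it is a description. Of 205 genes of 500 kb or more, the median change was -0.45 (quartiles -0.82 and -0.10) and 58.0% fell. Csmd1, at -0.80, had 54 of these genes below it, Csmd2 had 77, Lrp1b 112 and Csmd3 114. The 4 genes therefore lie within the middle range of genes of their span, and Csmd1 near its lower quartile. Lrp2 differs: of 1336 genes of 100 to 200 kb 16.2% fell and 7.49% rose, and 39 had a larger positive change than Lrp2. Lrp1 lies among 2271 genes of 50 to 100 kb with a median of 0.03.

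**Figure D5:**
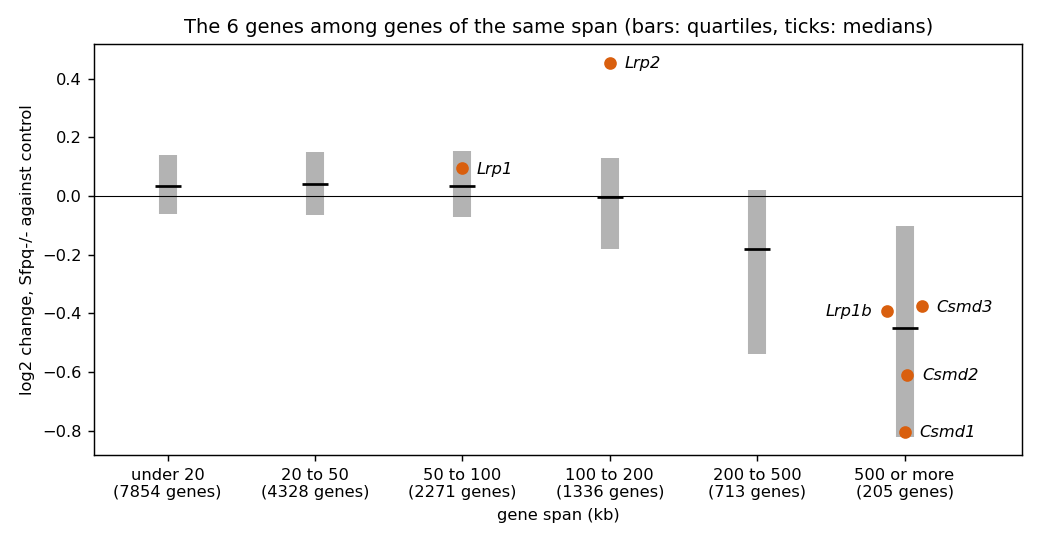
Log2 change in Sfpq-/- against control by gene span: grey bars are the quartiles and black ticks the medians of all genes in each class, and orange points are the 6 genes (shifted sideways only to keep them apart). The 4 genes of 500 kb or more lie between -0.80 and -0.38, within or at the edge of the bar of their class, and Lrp2 lies above that of its own class.

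For each gene the 3 genes whose levels followed it most closely over the 9 arrays were found by Pearson's r, as a description. The 9 arrays share the group differences, so a high r mostly states that 2 genes have like group means. The closest to Csmd1 were the glucuronyltransferase gene B3gat2 (r = 0.995), Atxn7l1 (0.994) and Mmd2 (0.992), and to Csmd2 Siah3 (0.993), the transcription factor gene Nfatc2 (0.983) and the cortical POU factor gene Pou3f3 (0.980). Csmd3 was followed by the BK potassium channel gene Kcnma1 (0.976), the flippase gene Atp8a2 (0.963) and Rab3c (0.962). Lrp1b was followed by the lipid phosphatase gene Plpp3 (0.962), Mpv17 (0.961) and the thyroid hormone receptor gene Thrb (0.954), and Lrp2 by Denn2b (0.989), Cpne8 (0.987) and Nudt12 (0.986). For Lrp1 they were Ccna1 (0.938), Trrap (0.937) and Tns1 (0.934), none of which passed in Sfpq-/- (adjusted p = 0.375, 0.757 and 0.802). None of these lists held another of the 6 members. Among the members, Csmd1 correlated at 0.974 with Csmd2, 0.912 with Lrp1b and -0.977 with Lrp2. Lrp1 had no r above 0.349 with another member.

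A list of other LDL receptor relatives, in a wide sense that takes in Ldlrad3 and Ldlrad4, was read from the same fit. Of 12 tested, 4 fell and 1 rose in Sfpq-/- against control, with a median of -0.12 against 0.03 over all genes, of which 6.12% fell and 5.98% rose. The same shares of all genes stand behind the counts in the lists that follow. They are not matched for span: 16.2% of genes of 100 to 200 kb, 38.1% of 200 to 500 kb and 58.0% of 500 kb or more fell. Of the genes named as lower in these lists, Lrp5, Sorl1, Sez6l, Susd4 and Neto1 are in the first of these classes. Ldlrad3, Ldlrad4 and Gulp1 are in the second, Dab1 is in the third, and Sez6, of 48.5 kb, is in none of them. Ldlrad3 was at 10.95 to 11.04 in controls and 10.14 to 10.25 in Sfpq-/- arrays and fell 1.73-fold (log2 change -0.79, adjusted p = 3.14e-05). The sorting receptor gene Sorl1 (-0.42, adjusted p = 0.00608), the Wnt coreceptor gene Lrp5 (-0.26, adjusted p = 0.0273) and Ldlrad4 (-0.29, adjusted p = 0.0292) also fell, and Lrp10 rose (0.25, adjusted p = 0.0428). The Lrp10 call ended in 13 of its 20 alternative settings, and those of Lrp5 and Ldlrad4 in 6 each.

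Of 12 chaperones, adaptors and sorting factors of the family, 2 fell and 1 rose (median -0.01). Dab1, the adaptor that binds the reelin receptors, fell by 1.35 (adjusted p = 2.5e-06), from 10.42 to 10.51 in controls to 9.06 to 9.19 in Sfpq-/- cortex. The engulfment adaptor gene Gulp1, whose product binds the LRP1 tail, fell by 0.71 (adjusted p = 0.0283), and Apbb1 rose by 0.30 (adjusted p = 0.0243). Each of the Gulp1 and Apbb1 calls ended in 6 alternative settings. Lrpap1, the chaperone of these receptors, differed by -0.05 and Cubn, which encodes the partner receptor of megalin, by 0.08, and neither passed (adjusted p = 0.83 and 0.673).

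Among 20 ligands and signalling partners 3 rose and none fell (median 0.11 against 0.03 over all genes), and 12.1% of all genes passed in either direction. Ptch1, the Shh receptor gene and a target of Shh signalling, was at 9.21 to 9.57 in controls and 9.88 to 10.09 in Sfpq-/- cortex and rose 1.55-fold (log2 change 0.63, adjusted p = 0.00326). The LRP1 ligand genes Thbs1 (0.43, adjusted p = 0.00636) and Mmp9 (0.31, adjusted p = 0.034) rose as well, and the Mmp9 call ended in 9 alternative settings. Shh itself differed by 0.34 (adjusted p = 0.681), Gli1 by 0.16 (adjusted p = 0.198) and Bmp4 by 0.09 (adjusted p = 0.752).

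Genes of the CUB and sushi domain families and of complement moved both ways: of 19 tested, 4 fell and 5 rose (median -0.01), beside 6.12% and 5.98% of all genes. Sez6l, a neuronal CUB and sushi domain gene, was at 8.92 to 9.09 in controls and 7.96 to 8.20 in Sfpq-/- cortex and fell 1.90-fold (log2 change -0.93, adjusted p = 6.24e-05), and Susd4 fell by 0.39 (adjusted p = 0.00682). Susd2 rose by 0.54 (adjusted p = 0.00294) and Cd55, a membrane inhibitor of complement, by 0.43 (adjusted p = 0.0041). Named after their values were seen, Sez6 (-0.36, adjusted p = 0.0307) and Neto1 (-0.45, adjusted p = 0.0146) also fell. Sez6l2, a relative of Sez6l, rose (0.39, adjusted p = 0.0155). The complement genes C1qb (0.30, adjusted p = 0.0381) and C1qc (0.35, adjusted p = 0.0458), named here after their values were seen, are 2 of the 5 that rose and also stand in the list of microglia markers. The complement genes C1qa (0.25), C2 (0.05), C3 (-0.09) and C4b (-0.03) of this list did not pass (adjusted p = 0.139, 0.841, 0.608 and 0.908). In Sfpq+/- against control no gene of these 4 lists passed.

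Markers of other cells were read beside the members, whose own change by cell type was not measured. Projection neuron markers averaged 10.59 to 10.70 on control arrays, 10.71 to 10.89 on Sfpq+/- and 10.42 to 10.46 on Sfpq-/- arrays, and 4 of 10 fell in Sfpq-/-. Those were Neurod6, Fezf2, Sox5 and Syt1, the last 2 with spans of 954 and 513 kb. The other 6 did not pass and differed by -0.01 (Bcl11b) to 0.14 (Tbr1), and the median of the 10 was -0.01. Radial glia markers overlapped between groups, and 1 of 10 fell. Microglia markers averaged 7.75 to 7.80 in controls and 8.06 to 8.10 in Sfpq-/- cortex, and 7 of 10 rose. The dorsal midline and choroid plexus markers averaged 8.97 to 9.12 in controls and 9.09 to 9.20 in Sfpq-/- cortex, and 1 of 11 rose. The choroid plexus marker Ttr had means of 12.51 and 12.62. Ventral telencephalon markers averaged 8.48 to 9.39 on control arrays, a wider range than the 8.84 to 9.03 on Sfpq-/- arrays, and 1 of 9 rose. Of 8 endothelial and pericyte markers 1 rose, and none of 9 meningeal and 3 erythroid markers passed. Beside these counts of 1 in 8 to 11 markers, 5.98% of all genes rose and 6.12% fell, and 12.1% passed in either direction. With so few markers a count of 1 is not read further. No marker tested was at 0. The part of these markers in the members' changes was not tested.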

How the data were processed

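The log2 signals per probe set are those the authors deposited. The submitters' processing notes name Affymetrix Expression Console 1.2.0.20 and the design text names the Exon Array Computational Tool. How background, normalization and summary were handled is not stated there, and nothing was normalized again here. The unit was read from the values. Depth does not apply to arrays, and the 3 arrays a group limit the precision.

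Of 1256831 probe sets, 318760 had 1 symbol in the platform annotation; symbols were updated through unique RefSeq synonyms. The 628415 probe sets with a mean above 5.64 were kept, and a gene needed at least 3. All 9 arrays entered 1 limma 3.58.1 model (R 4.3.3) with 3 group means for genes, probe sets and departures, adjusted over all features. The steps were also run on simulated data with noise independent between arrays. That simulation held no sex or replicate structure, so it does not check the fit against either. Alternatives were the limit for dim probe sets, the summary, the scaling, the samples, weights, covariates and each array left out. The brightness ranking by Sfpq+/- arrays was chosen after seeing the data. The members, lists and tests were chosen with earlier results of these data known. Named were, per member, the 3 brightest probe sets, the 3 with the largest fall, the largest rise and those whose departure passed (4 where over 6 did), the 3 most alike genes, and in each list all genes that passed (4 where over 6 did). Lrpap1, Cubn, Shh, Gli1, Bmp4, Sez6, Sez6l2, Neto1, C1qa, C1qb, C1qc, C2, C3, C4b, 5188102 and the markers given were added outside that rule.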

Additional observations from a re-analysis of the deposited data

How the results depend on the processing

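Csmd1, Csmd2 and Lrp2 passed in both Sfpq-/- comparisons under all 20 settings, Csmd3 against Sfpq+/- under all 20 and against control under 6. Lrp1b passed against control in 14 of 19 and against Sfpq+/- in 10 of 19. Lrp1 and every member in Sfpq+/- against control passed in none. With only probe sets above 7, the members' probe sets called against Sfpq+/- were 33 in place of 50, and the Sfpq+/- differences from control turned to -0.060 for Csmd1, 0.008 for Lrp1b and -0.030 for Lrp2. Above 8, 1 gene passed in Sfpq+/- against control, Csmd1 there was at -0.039 and Csmd2 at -0.037. Array weights estimated gene by gene, chosen after seeing the data because the default estimate of the weights did not converge and was not run, gave 4609 genes against control in place of 2040 and 3635 against Sfpq+/- in place of 1994. Under these weights Lrp1 was at -0.040 in Sfpq-/- and Lrp1b at 0.029 in Sfpq+/-, both against control. A trended prior variance gave 17658 probe sets against control in place of 11007. With Xist signal as covariate, Lrp1 was at -0.017 in Sfpq-/- and -0.029 in Sfpq+/- against control and at 0.012 between them, and Csmd1 at -0.077 in Sfpq+/-. The cause was not tested for any of these.

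Leaving out 1 array gave 1311 to 2453 genes in Sfpq-/- against control and 0 to 1 in Sfpq+/-. Probe sets numbered 5594 to 9077 against control and 6091 to 10935 against Sfpq+/-, and departures 938 to 2131 and 650 to 1983. The members' probe sets numbered 15 to 38 and 18 to 48. Uncalled values that changed sign ran from -0.022 to 0.219 for Lrp1 against control, from -0.196 to 0.045 for Lrp1 against Sfpq+/-, and in Sfpq+/- from -0.020 to 0.101 for Csmd1, from -0.086 to 0.083 for Lrp1b and from -0.002 to 0.080 for Lrp2. Single probe sets that did so against control were 4793805 between -0.146 and 0.449, 4862246 between -0.51 and 0.194, 4635466 between -0.085 and 0.116, 5599734 between -0.077 and 0.16, 4593824 between -0.091 and 0.143, 4461436 between -0.163 and 0.092, 4641995 between -0.025 and 0.162, 4530265 between -0.124 and 0.217, 4359290 between -0.241 and 0.079, 4845097 between -0.4 and 1.114, 4710908 between -0.305 and 0.148, 5457578 between -0.257 and 0.005, 5320960 between -0.269 and 0.067, 5598420 between -0.236 and 0.228, 4586339 between -0.254 and 0.131.

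Same-numbered samples went together in part: their deviations correlated at 0.28, 0.01 and 0.57 between Sfpq-/- and control. Sfpq-/- 1 and 3 each correlated best with the control of their own number, and Sfpq-/- 2 with control 1 (0.36). The same numbers gave 0.25, 0.05 and 0.31 between Sfpq+/- and control. Between Sfpq-/- and Sfpq+/- they gave -0.06, 0.04 and 0.30. The labels do not say what a number shares, and this was not tested. The replicate block gave 2469 genes against control, 2367 against Sfpq+/- and 10756 probe sets against control, ended the departure call of 4786796 and let probe sets 5039038, 5001732 and 5092887 pass (adjusted p = 0.0459, 0.0454 and 0.0411). It changed no other call of a member or of a named gene or probe set. Dim probe sets limit Csmd3 and Lrp1b most, and above 8 Lrp1b kept 1 probe set, so its gene level had no value.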
